A study of Mus musculus with 6 samples.

Results

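Galanin is a neuropeptide cut from a larger precursor, stored in dense-core vesicles and released with the classical transmitters of autonomic neurons. It acts on 3 G protein-coupled receptors, GALR1 and GALR3, which couple mainly to inhibitory G proteins, and GALR2, which also couples to Gq. In sympathetic ganglia it is known as a peptide of noradrenergic neurons whose gene is induced by nerve injury and by cytokines of the LIF family. The 4 genes of this ligand and receptor family, *Gal*, *Galr1*, *Galr2* and *Galr3*, were taken by symbol from the 32285 genes of the deposited tables and described in every library.

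Cells came from ganglia of mice of a Cre reporter strain at postnatal day 5, the same strain and age in every group and with no treatment. In this strain Cre switches on the red reporter tdTomato. Pups of both sexes were used, whole ganglia were dissociated with enzymes, and the counts do not show which animal a cell came from. Of the sympathetic ganglia, the stellate and the lumbar were paravertebral and the coeliac was prevertebral. The sphenopalatine ganglion is parasympathetic, and the pelvic ganglion holds cholinergic and noradrenergic neurons that control the bladder, the rectum and the genital organs. The pelvic ganglion had 2 libraries (pelvic_1 and pelvic_2) and each other ganglion had 1, so no test between ganglia was run, and those comparisons are descriptions that rest on 1 library for every ganglion but the pelvic one. The stellate, sphenopalatine and pelvic_1 libraries came from sequencing round 1, with an earlier version of the droplet chemistry, and the other 3 from round 2. Between ganglia with 1 library from different rounds, round and ganglion cannot be told apart. The stellate and sphenopalatine libraries share round 1, the coeliac and lumbar libraries share round 2, and the pelvic ganglion was sequenced in both.

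The libraries held between 39353313 and 113352559 UMIs (unique molecular identifiers, each counting one captured RNA). Of 21442 droplets retained, 7052 were classed as neurons and 8468 as glial cells by their marker genes. The neurons numbered 2724 in the stellate, 237 in the coeliac, 930 in the lumbar, 1903 in the sphenopalatine, 893 in pelvic_1 and 365 in pelvic_2. Their median depth ran from 26651 UMIs per neuron in the stellate to 108598 in pelvic_2. Between 0 and 49 cell barcodes were shared by any pair of libraries. Levels are given in CPM, the UMIs of a gene summed over a group of cells, divided by all UMIs of those cells and scaled to 1000000. Intervals in brackets are exact 95% Poisson intervals for CPM and 95% Wilson intervals for shares of cells, and they cover counting error only.

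*Gal* (ENSMUSG00000024907) lies on chromosome 19, from 3409915 to 3414544 on the minus strand of GRCm38, the assembly also called mm10. Its transcript Gal-201 has 6 exons and 423 coding bases. The stretch that encodes the secreted peptide is shown because it is the product whose precursor RNA was counted. It lies in exon 3 (chr19:3413295-3413340) and exon 4 (chr19:3411592-3411647). The 87 bases of the peptide are in lower case, and the capitals mark the codons of the processing sites on each side, with the glycine codon used for C-terminal amidation directly after the peptide.
Gal, coding strand, 5′ to 3′: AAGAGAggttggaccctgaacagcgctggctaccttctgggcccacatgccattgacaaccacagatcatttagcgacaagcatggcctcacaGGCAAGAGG

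*Galr1* (ENSMUSG00000024553) lies on chromosome 18, from 82392380 to 82406777 on the minus strand. *Galr2* (ENSMUSG00000020793) lies on chromosome 11, from 116280939 to 116283938, and *Galr3* (ENSMUSG00000114755) on chromosome 15, from 79041885 to 79043558, both on the plus strand. The RNA of *Gal* and *Galr1* came mostly from neurons, which held 95.4% of the 87964 *Gal* UMIs and 95.6% of the 4927 *Galr1* UMIs in retained droplets. Neurons held 82.5% of the 520 *Galr2* UMIs, but only 5 of the 16 *Galr3* UMIs.

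The ligand was highest in sympathetic neurons. *Gal* stood at 528 CPM (523 to 533) in lumbar neurons, 511 CPM (506 to 516) in stellate neurons and 173 CPM (167 to 179) in coeliac neurons. It stood at 20.2 CPM (19.2 to 21.3) in sphenopalatine neurons, and at 6.65 CPM (5.84 to 7.54) in pelvic_1 and 6.96 CPM (6.14 to 7.87) in pelvic_2. The 3 sympathetic libraries were therefore all far above the other 3, and the 2 pelvic libraries, although sequenced in different rounds and at different depths, were the lowest and close to each other, with a mean of 6.81 ± 0.22 CPM (SD, n = 2). Relative to the pelvic mean, *Gal* was 77.6-fold higher in the lumbar, 75.1-fold in the stellate, 25.4-fold in the coeliac and 2.97-fold in the sphenopalatine library. The lumbar and stellate levels are not ordered here, since the spread between preparations of these ganglia is unknown.

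**Figure D1:**
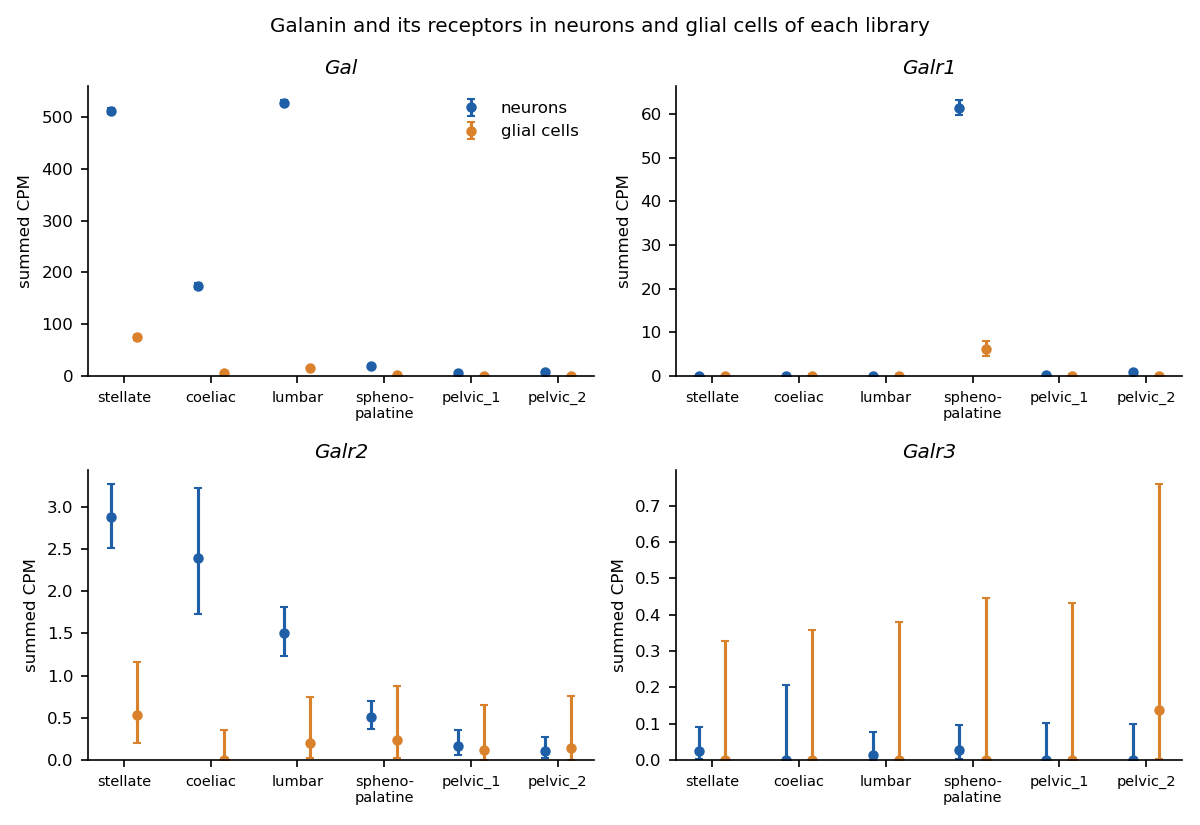
Level (summed CPM) of the 4 genes in neurons (blue) and glial cells (orange) of each of the 6 libraries, with exact 95% Poisson intervals, each panel on its own linear scale from 0. *Gal* is high in the stellate (511 CPM) and lumbar (528 CPM) neurons, *Galr1* in the sphenopalatine neurons (61.4 CPM), *Galr2* is low but above glial cells in sympathetic neurons, and *Galr3* is near 0 in every library.

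Most sympathetic neurons contained *Gal* RNA. A *Gal* UMI was found in 92.2% of stellate, 91.7% of lumbar and 68.4% of coeliac neurons, against 31.8% in the sphenopalatine, 13.9% in pelvic_1 and 23.8% in pelvic_2. Because deeper neurons show more genes, 4000 UMIs were also drawn at random from each cell, and neurons with fewer (1 to 41 per library) were set aside. At this equal depth the share was 66.7% (64.9 to 68.4) in the stellate, 67.3% (64.1 to 70.3) in the lumbar, 34.9% (29.1 to 41.2) in the coeliac, 6.81% (5.76 to 8.04) in the sphenopalatine, 2.35% in pelvic_1 and 1.72% in pelvic_2. The 2 paravertebral libraries had nearly the same share both at full depth and at 4000 UMIs, and 80.5% (stellate) and 76.9% (lumbar) at 8000 UMIs. The pelvic shares at 4000 UMIs rested on 21 neurons with a UMI in pelvic_1 and 6 in pelvic_2. At 8000 UMIs they were 3.60% in pelvic_1 and 5.33% in pelvic_2, so the pelvic libraries are not ordered here.

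Glial cells of the same libraries, which should lack the peptide, were taken as the background. *Gal* was at 74.7 CPM in stellate glia, 14.6 CPM in lumbar glia, 5.60 CPM in coeliac glia, 2.78 CPM in sphenopalatine glia, 0.935 CPM in pelvic_1 glia and 0.409 CPM in pelvic_2 glia. The stellate background was the highest, with a *Gal* UMI in 23.0% of its glial cells at 4000 UMIs, from 829 cells. Another 2070 stellate glial cells had fewer UMIs and were set aside, as were 361 in the sphenopalatine library. Glial shares at 4000 UMIs therefore describe the deeper glial cells. The ratio of *Gal* to *Npy* UMIs, 2 peptide genes of the same neurons, was 0.165 in stellate neurons and 0.137 in stellate glia, 0.0459 and 0.05 in the coeliac, and 0.234 and 0.188 in the lumbar library. Against the noradrenergic enzyme genes the ratios lay farther apart. *Gal* over *Th* was 0.514 in neurons and 0.348 in glia of the stellate, 0.263 and 0.156 in the coeliac, and 1.17 and 0.683 in the lumbar library. *Gal* over *Dbh* was 0.394 and 0.269, 0.165 and 0.0746, and 0.603 and 0.42 in the same order. Counted per cell, *Gal* averaged 14.9 UMIs in a stellate neuron and 0.29 in a stellate glial cell, and 0.808 UMIs in a sphenopalatine neuron against 0.0147 in a glial cell. In pelvic_1 the means were 0.273 UMIs per neuron and 0.00452 per glial cell, so the low pelvic level was also above that of glia in its own library.

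*Gal* was unevenly spread among neurons of one ganglion. In the stellate library the 10th, 50th and 90th percentiles over neurons were 30.9, 333 and 1191 CPM, and in the lumbar library 11.1, 423 and 1085 CPM. In the coeliac library they were 0, 52.5 and 391.6 CPM. The 10% of neurons with most *Gal* held 41.7% of its UMIs in the stellate, 38.0% in the lumbar and 61.0% in the coeliac library. In the sphenopalatine library they held 66.6%, and in the pelvic libraries 86.1% and 77.0%. Neurons were ranked by their *Gal* UMIs, not by CPM, so depth enters these shares. Low counts also raise them. In pelvic_1 only 13.9% of neurons had a *Gal* UMI, so the top 10% must hold most of the UMIs. The shares are therefore not compared between ganglia with high and low *Gal*.

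Neurons of each ganglion were clustered to locate this spread. In the stellate, 6 of 10 clusters were noradrenergic-like by their markers and ranged from 173 to 848 CPM of *Gal*. The highest was cluster 3, led by *Npy*, *Tmc3* and *Arg1*, at 848 CPM, followed by cluster 8, led by *Cntn4* and *Gng8*, at 743 CPM, and cluster 2, led by *Fst*, *Rxfp1* and *Sctr*, at 729 CPM. Cluster 1, led by *Kcnmb2* and *Ndufa4l2*, stood at 491 CPM. Cluster 5, led by *Uts2b* and *Cited1*, stood at 321 CPM. Cluster 4, led by *Ptprg* and the vesicular transporter gene *Slc18a1*, was the lowest noradrenergic-like one at 173 CPM, although 91.6% of its neurons had a *Gal* UMI. The cholinergic-like cluster 6, led by *Vip*, *Cartpt* and *Sst*, was at 133 CPM, and the unnamed cluster 10, led by *Adgrg6*, *Pnoc* and *Slc5a7*, was at 52.8 CPM, or 2.32 UMIs per neuron. Clusters 7 and 9 were led by glial and fibroblast genes, stayed unnamed and had 527 and 501 CPM.

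The lumbar clusters covered a still wider range, 30.9-fold from the lowest to the highest. Cluster 3, led by *Fst* and *Sctr* as was stellate cluster 2, had 896 CPM of *Gal*, with a UMI in all of its 144 neurons. Clusters 1 and 2, led by *Kcnmb2* and by collagen genes, had 567 and 604 CPM, and cluster 6, led by *Cbln2* and *Sytl4*, had 187 CPM. Cluster 4, led by *Cntn5*, *Myl1* and *Crabp1*, was noradrenergic-like with only 70.3 CPM, and the cholinergic-like cluster 5, led by *Vip*, *Sst* and *Calca*, was the lowest at 29.0 CPM. In the coeliac library the 3 noradrenergic-like clusters were alike, at 156, 171 and 195 CPM.

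**Figure D2:**
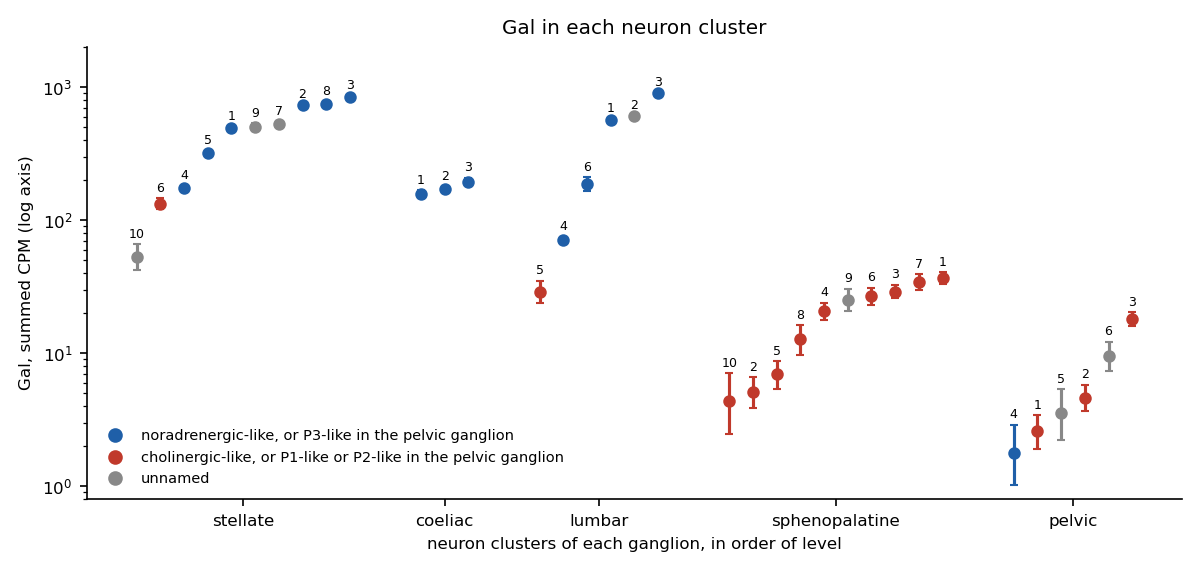
*Gal* level (summed CPM, log axis) in each neuron cluster, ordered by level within each ganglion, with exact 95% Poisson intervals and the cluster number above each point. Noradrenergic-like clusters (blue) reach 848 CPM in the stellate and 896 CPM in the lumbar library, where the cholinergic-like clusters (red) are at 133 and 29.0 CPM. The pelvic P3-like cluster (blue) has the lowest value of the pelvic ganglion, 1.78 CPM, and in each pelvic library its interval overlaps that of the P2-like cluster.

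In the pelvic ganglion the cluster with noradrenergic markers was not among the highest. The P3-like cluster, which carries *Th*, *Dbh* and *Slc6a2*, had the lowest *Gal* level, with 2.10 CPM in pelvic_1 and 1.32 CPM in pelvic_2, from 11 and 5 UMIs. The P2-like cluster, led by *Grp*, had 2.32 and 2.92 CPM, and its intervals overlapped those of the P3-like cluster in both libraries. P1 markers were raised in 2 clusters. The first, cluster 2, led by *Cartpt* and *Pyy*, had 6.75 and 3.05 CPM. The second, cluster 3, led by *Penk*, *Gng8* and *Pcp4l1*, had 16.1 CPM in pelvic_1 and 19.3 CPM in pelvic_2, with a mean of 17.7 ± 2.28 CPM (SD, n = 2), the highest of the 6 clusters in both libraries, although in pelvic_1 its interval overlapped that of cluster 6. Clustered without pelvic_1, the highest *Gal* level of a pelvic cluster was 11.5 CPM. A *Gal* UMI was found in 45.0% of the neurons of cluster 3, against 8.05% in the P2-like cluster. Cluster 6, led by *Calca* and *Aldh1a2* but also by fibroblast genes, stayed unnamed and differed between libraries, with 14.5 CPM in pelvic_1 and 4.82 CPM in pelvic_2. Cluster 5, led by glial genes, had 3.53 and 3.51 CPM. The interval of the P3-like cluster also overlapped that of cluster 5 in both libraries, and in pelvic_2 those of clusters 2 and 6.

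The relation of *Gal* to the transmitter was then compared within libraries, between cholinergic neurons, with a UMI of at least 2 of *Chat*, *Slc18a3* and *Slc5a7*, and noradrenergic neurons, with none of these 3 genes and at least 3 UMIs of at least 2 of *Th*, *Dbh* and *Slc6a2*. In the stellate library *Gal* was at 94.8 CPM in 87 cholinergic and 572 CPM in 2178 noradrenergic neurons. In the lumbar library it was at 133 CPM in 93 cholinergic and 585 CPM in 568 noradrenergic neurons. This cholinergic class reaches beyond the cholinergic-like lumbar cluster 5, which had 55 neurons and 29.0 CPM, so it takes in neurons of other clusters. With all 3 cholinergic genes required, 34 lumbar neurons remained. In pelvic_1 *Gal* was at 7.32 CPM in 776 cholinergic and 2.64 CPM in 62 noradrenergic neurons, from 236 and only 6 UMIs. Cholinergic neurons were thus lower in both sympathetic libraries and higher in the pelvic one. Libraries with under 10 neurons of either class did not enter the fit. These were the coeliac library, with 40.9 CPM in 3 cholinergic and 183 CPM in 178 noradrenergic neurons, and pelvic_2, with 7.49 CPM in 313 cholinergic and 1.26 CPM in 9 noradrenergic neurons, the last from 1 UMI. Both had the direction of their kind.

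**Figure D3:**
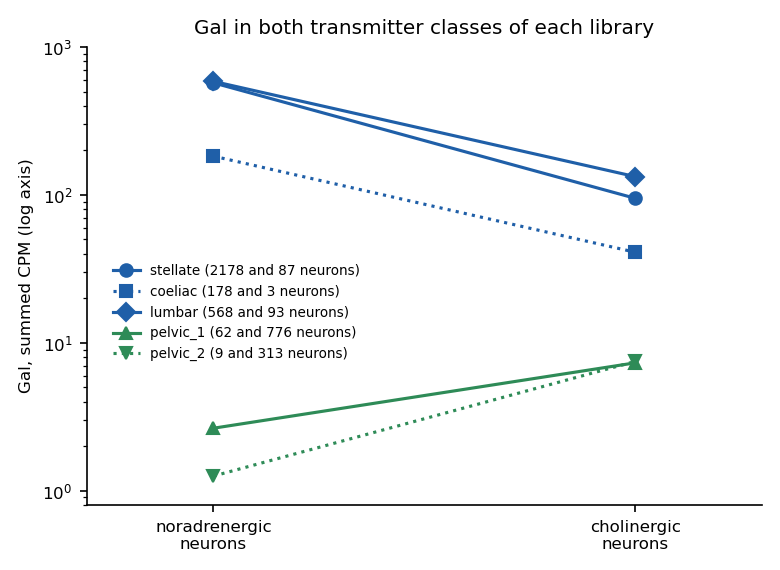
*Gal* level (summed CPM, log axis) in noradrenergic and cholinergic neurons of each library, joined by lines, with the numbers of neurons in the key. The lines fall in the 3 sympathetic libraries (blue) and rise in the 2 pelvic libraries (green), and dotted lines mark the 2 libraries with too few neurons of a class for the fit. No intervals are drawn, and the noradrenergic points of pelvic_1 and pelvic_2 rest on 6 and 1 UMIs.

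*Gal* fell in cholinergic neurons of the sympathetic libraries, by 2.41 on the log2 scale (SE 0.12), which is 5.32-fold, with an adjusted p of 8.62e-08 in edgeR's quasi-likelihood test (n = 2 libraries). Of 15675 genes tested there, 16.6% were called in either direction and 7.44% were lower in cholinergic neurons. Higher in cholinergic neurons were 9.14%. In the pelvic library the log2 difference was 1.48 ± 0.51 (SE) and missed the threshold, with an adjusted p of 0.104 in the same edgeR fit, in which 8.38% of genes were called, 4.83% higher and 3.55% lower in cholinergic neurons. The pelvic difference minus the sympathetic one was 3.89 ± 0.44 on the log2 scale, with an adjusted p of 0.000215 in edgeR, and 4.67% of genes were called for it, 2.31% above and 2.36% below 0. The fit has 1 residual degree of freedom and the pelvic term rests on 1 library, whose classes are assumed to vary like those of the others. Each edgeR SE was derived from the log2 value and the F statistic of its test, not fitted. For the difference it is smaller than the 0.51 of the pelvic term alone, and DESeq2 gave an SE of 0.66 there. Without the library as a block, *Gal* lost the calls for the sympathetic libraries (edgeR, adjusted p = 0.0991) and for the difference (edgeR, adjusted p = 0.481), at nearly the same log2 values, -2.41 and 3.88. Over all alternatives the adjusted p-values of edgeR and DESeq2 ran from 5.35e-121 to 0.0991 for the sympathetic libraries, from 0.00011 to 0.703 for the pelvic library and from 1.5e-32 to 0.481 for the difference. With cholinergic neurons required to have all 3 genes, the sympathetic log2 difference was -3.92, and with noradrenergic neurons allowed 1 cholinergic gene, which adds pelvic_2, the pelvic one was 2.25 (edgeR, adjusted p = 0.00011). Cholinergic neurons were the deeper class, with medians of 42942 against 25007.5 UMIs in the stellate and 102768 against 60791.5 in the lumbar library. After thinning to 4000 UMIs the log2 value was -2.32 ± 0.16 for the sympathetic libraries, 7.44 ± 3.37 for the pelvic library and 9.76 ± 2.19 for the difference. The size of the last 2 cannot be read, since pelvic_1 noradrenergic neurons held only 6 *Gal* UMIs before thinning, at a median depth of 33827.5 UMIs. The classes were kept as cut on full counts, so a depth selection in their definition was not tested.

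Of the receptors, *Galr1* was found in sphenopalatine neurons, at 61.4 CPM (59.7 to 63.2) and 2.45 UMIs per neuron, against 6.17 CPM and 0.0325 UMIs per cell in sphenopalatine glia. It was seen in 74.4% of sphenopalatine neurons at full depth, and at 4000 UMIs in 20.7% (18.9 to 22.5) of these neurons and 1.66% of glial cells. No *Galr1* UMI was present in 2724 stellate, 237 coeliac or 930 lumbar neurons, where the intervals of the share reach 0.141%, 1.60% and 0.411%. With 3 counts per library taken as the floor, the sphenopalatine level was 1625-fold, 368-fold and 1481-fold the floor of these libraries. Their exact intervals reach 0.0465, 0.205 and 0.051 CPM, somewhat above that floor. Pelvic_1 neurons held 9 *Galr1* UMIs (0.245 CPM, 0.112 to 0.466) and pelvic_2 neurons 31 UMIs (0.84 CPM, 0.571 to 1.19). No *Galr1* UMI was found in 1768 and 574 pelvic glial cells, where the intervals reach 0.431 and 0.503 CPM. Within the pelvic ganglion, 20 of these UMIs were in P1-like cluster 2 of pelvic_2, where the same cluster of pelvic_1 had 0, while P1-like cluster 3 held 5 and 11 UMIs in pelvic_1 and pelvic_2.

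*Galr1* was present in all 10 sphenopalatine clusters, from 17.2 to 106 CPM, and its order among them was not that of *Gal*. Cluster 2, led by *Rxfp1* and *Pcp4l1*, had the highest *Galr1* level, 106 CPM (100.0 to 112), and 5.11 CPM of *Gal*. Cluster 5, led by *Npy* and *Cited1*, had 80.5 CPM of *Galr1*, with a UMI in most of its neurons, and 6.91 CPM of *Gal*. Cluster 1, led by *Ntm* and *Htr7*, had 72.2 CPM of *Galr1* and the highest *Gal* level, 36.7 CPM, and cluster 3, led by *Ddc* and *Edil3*, had 88.3 CPM and 29.0 CPM. The lowest *Galr1* levels were 17.2 CPM in cluster 4, led by *Pyy*, 24.5 CPM in cluster 8, led by *Gpr50* and *H19*, and 26.1 CPM in cluster 6, led by *Tac1*. In those clusters *Gal* stood at 20.6, 12.7 and 26.7 CPM.

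**Figure D4:**
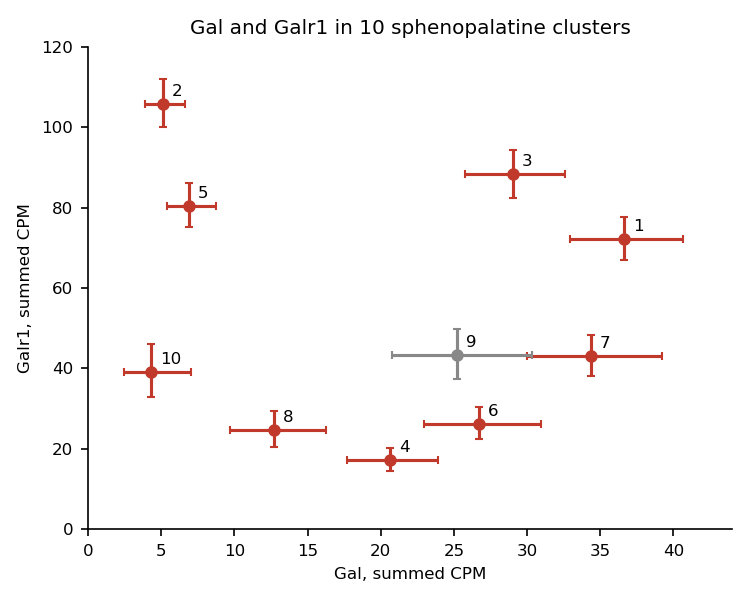
*Galr1* level against *Gal* level (both summed CPM) in the 10 sphenopalatine clusters, numbered, with exact 95% Poisson intervals on both axes and the unnamed cluster 9 in grey. Clusters 2 and 5 combine *Galr1* above 80 CPM with *Gal* below 7 CPM, while clusters 1 and 3 are high in both.

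Receptor RNA was found in sphenopalatine neurons with and without ligand RNA. *Galr1* UMIs were found in 71.1% (67.3 to 74.5) of 605 neurons with a *Gal* UMI and in 76.0% (73.6 to 78.2) of 1298 neurons without one, and 430 neurons had both. Thinned to 16000 UMIs, the shares were 48.4% (43.4 to 53.5) and 55.7% (53.2 to 58.2), and thinned to 4000 UMIs, 15.9% (10.8 to 23.0) and 19.8% (18.0 to 21.7). The neurons with *Gal* had the lower share at each depth, and the intervals overlapped at each. These neurons share 1 library and the intervals cover counting error only.

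*Galr2* was low, and among neurons it was highest in the 3 sympathetic libraries. It stood at 2.87 CPM (2.51 to 3.27) in stellate, 2.39 CPM (1.73 to 3.22) in coeliac and 1.51 CPM (1.24 to 1.82) in lumbar neurons. It stood at 0.513 CPM (0.365 to 0.701) in sphenopalatine neurons, 0.164 CPM in pelvic_1 and 0.108 CPM in pelvic_2. The stellate and coeliac intervals overlap, and the levels of both pelvic libraries lie within the intervals of their glia, which had 1 UMI each. In stellate glia *Galr2* was at 0.533 CPM from 6 UMIs, in coeliac glia it had no UMI and in lumbar glia 2. A *Galr2* UMI was seen in 6.90% of stellate, 13.5% of coeliac and 8.60% of lumbar neurons. At 4000 UMIs it was seen in 0.777% (0.509 to 1.18) of stellate neurons and in 0.483% (0.188 to 1.23) of stellate glia, which is no detectable difference at that depth. The glial share rested on 4 cells with a UMI among the 829 stellate glial cells that were deep enough. Among stellate clusters *Galr2* ran from 0.614 CPM in the cholinergic-like cluster 6 to 5.93 CPM in cluster 8, and among lumbar clusters from no UMI in the cholinergic-like cluster 5 to 2.95 CPM in cluster 3.

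*Gal* and *Galr2* passed the filter on low counts of the class test and *Galr1* and *Galr3* did not. The class difference of *Galr2* in the sympathetic libraries was -0.59 ± 0.49 (SE) on the log2 scale, with 1.35 and 2.85 CPM in cholinergic and noradrenergic neurons of the stellate and 1.27 and 1.41 CPM in the lumbar library, and did not pass (edgeR, adjusted p = 0.48). In pelvic_1 the *Galr2* class difference was 4.27 ± 6.62 and rested on 3 UMIs in cholinergic and 0 in noradrenergic neurons. By cluster, the P3-like cluster held 4 of the 6 *Galr2* UMIs of pelvic_1 neurons and 2 of the 4 of pelvic_2 neurons.

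*Galr3* was hardly found in neurons, with 2 UMIs in the stellate, 1 in the lumbar, 2 in the sphenopalatine and 0 in the other 3 libraries. Non-neuronal cells were clustered to look for the remaining receptor RNA. A cluster of 308 chromaffin-like cells, led by *Chga* and *Chgb*, held 8 of the 16 *Galr3* UMIs (2.39 CPM, 1.03 to 4.71), 4 in 165 cells of pelvic_1 and 4 in 35 cells of pelvic_2. Its 57 cells of the stellate, 39 of the coeliac and 12 of the lumbar library had none, where the intervals reach 9.36, 4.43 and 12.0 CPM. The same cluster had 35.0 CPM of *Gal*, from 23.0 CPM in pelvic_2 to 58.4 CPM in the stellate, which lay below the 74.7 CPM of stellate glia but in the coeliac, lumbar and pelvic libraries above their glia. It also held 15 *Galr1* UMIs (4.49 CPM, 2.51 to 7.40), 6 of them in the coeliac, 2 in the lumbar, 5 in pelvic_1 and 2 in pelvic_2, and so in libraries whose glia had none.

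Outside neurons, *Galr2* was found in fibroblast-like cells, at 1.91 CPM (1.50 to 2.40) from 74 UMIs in 3248 cells, against 0.19 CPM in glia-like cells and no UMI in endothelial-like or macrophage-like cells. Its level in these fibroblast-like cells was 3.54 CPM (2.31 to 5.19) in pelvic_1, 2.72 CPM in the sphenopalatine, 1.50 CPM in the stellate, 1.48 CPM in the coeliac, 1.19 CPM in the lumbar and 0.961 CPM (0.461 to 1.77) in pelvic_2. It was therefore seen in all 6 libraries, in the pelvic and sphenopalatine ones above the level of their neurons, and the 2 pelvic libraries differed beyond counting error. In the stellate, lumbar and pelvic_2 libraries it rested on 7, 5 and 10 UMIs, with intervals that overlapped those of glia-like cells of the same library.

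**Figure D5:**
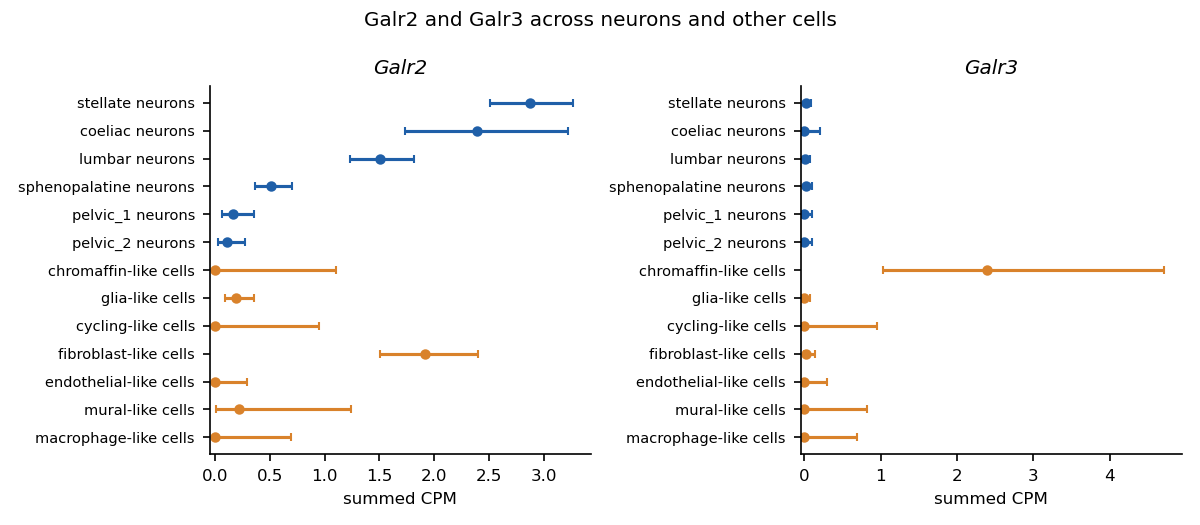
*Galr2* and *Galr3* levels (summed CPM, each panel on its own scale) in neurons of each library (blue) and in classes of other cells pooled over libraries (orange), with exact 95% Poisson intervals. *Galr2* is present in sympathetic neurons (up to 2.87 CPM) and fibroblast-like cells (1.91 CPM), and *Galr3* in chromaffin-like cells (2.39 CPM).

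The other genes of the galanin system were followed in lists. Without the library as a block, *Sst* in the sympathetic libraries was the only gene of these lists that edgeR called in any of the 3 contrasts, so all other list calls below are lost in that fit. Of the other ligands, *Galp*, which encodes galanin-like peptide, had at most 0.0556 CPM in neurons of any library, and *Spx*, which encodes spexin, a ligand of GALR2 and GALR3, ranged from 0.111 CPM in the coeliac to 2.15 CPM in the stellate. Of 11 genes for G proteins and inwardly rectifying potassium channels through which these receptors act, 1 rose (*Kcnj3*, log2 1.04 ± 0.17) and 1 fell (*Gnaq*, -0.31 ± 0.09) in cholinergic neurons of the sympathetic libraries, with a median of -0.18 against -0.04 over all genes tested. There 9.14% of all genes rose and 7.44% fell. In edgeR 0 of the 11 were called in the pelvic library and 0 for the difference, against 8.38% and 4.67% of all genes. An unadjusted p under 0.05 was reached by 5 and 2 of the 11, and by 3421 and 2689 of all 15675 genes tested. DESeq2 called 0 of the 11 in both. *Kcnj3*, a channel subunit gated by Gi-coupled receptors, was at 39.8 CPM in sphenopalatine neurons, 28.2 and 19.5 CPM in the pelvic libraries, and between 3.78 and 9.61 CPM in sympathetic neurons.

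Of 11 genes for peptide processing and dense-core vesicles, 5 rose and 2 fell in cholinergic neurons of the sympathetic libraries, with a median of -0.05, where 9.14% and 7.44% of all genes were called in these directions. Those that rose were *Pcsk1*, a prohormone convertase, *Pam*, the amidating enzyme, *Scg5*, *Cadps* and *Cadps2*. Those that fell with *Gal* were the chromogranin genes *Chga* (-0.73 ± 0.11) and *Chgb* (-0.93 ± 0.09). In the pelvic library 3 rose (*Cpe*, *Pam*, *Chgb*) and 2 fell (*Pcsk2*, *Scg2*), against 4.83% and 3.55% of all genes. The median was 0.35 there, against 0.07 over all genes tested. *Chgb*, at 1.41 ± 0.14 there, had the same pair of signs as *Gal*, and its difference between both kinds of library was 2.34 ± 0.17 (edgeR, adjusted p = 8.24e-06, and not called without the block).

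Of 13 genes of LIF-family cytokine signalling, a known regulator of *Gal*, 7 were tested. In cholinergic neurons of the sympathetic libraries 3 rose, *Stat3* (1.31 ± 0.14), its target *Socs3* (2.18 ± 0.15) and the receptor gene *Lifr* (0.47 ± 0.15), against 9.14% of all genes. DESeq2 called *Stat3* and *Socs3* but not *Lifr*. *Stat3* (0.95 ± 0.23) and *Socs3* (1.65 ± 0.29) also rose in the pelvic library, where 4.83% of all genes did and DESeq2 called *Socs3* alone. The transcripts of the cytokines *Lif*, *Il6* and *Osm* stood at no more than 0.245 CPM in neurons of any library. Of 7 injury and dissociation genes, 6 were tested, of which *Atf3*, *Fos* and *Egr1* rose and *Ecel1* (-1.70 ± 0.10) fell in cholinergic neurons of the sympathetic libraries. There 9.14% and 7.44% of all genes were called in these directions. *Jun*, *Fos* and *Egr1* rose and *Ecel1* fell in the pelvic library, against 4.83% and 3.55% of all genes. *Fos*, *Egr1* and *Ecel1* therefore moved with the classes in both kinds of library. *Jun* was not called in the sympathetic libraries, *Atf3* not in the pelvic one and *Gadd45a* in neither. The part of these genes in the values of *Gal* was not tested.

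Among 12 other neuropeptide genes, *Gal* had the direction of a minority in sympathetic neurons. There 7 rose in cholinergic neurons (*Vip*, *Sst*, *Calca*, *Tac1*, *Cartpt*, *Grp* and *Adcyap1*), 2 fell (*Npy* and *Nmb*) and the median was 2.98, against 9.14% and 7.44% of all genes. DESeq2 called the 7 but neither *Npy* nor *Nmb*. *Vip*, the peptide of cholinergic vasodilator and secretomotor neurons, rose by 6.15 ± 0.19 on the log2 scale, and *Npy*, the main noradrenergic peptide, stood at -0.57 ± 0.15. In the pelvic library 7 rose, among them *Penk* (2.77 ± 0.42), and *Npy* was again lower, at -1.77 ± 0.21, where 4.83% of all genes rose and 3.55% fell. The list median was 3.31 there, against 0.07 over all genes tested. The difference for *Npy* between both kinds of library, -1.20 ± 0.25, turned to 1.44 when cholinergic neurons had to have all 3 genes.

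Over 40 neuron groups (clusters of single libraries with at least 30 neurons), the genes with the pattern most like that of *Gal*, among 11083 compared, were *Omp* (Pearson r = 0.89 on the log2(CPM + 1) scale), *Sctr* (0.88), *Pthlh* (0.88), *St6galnac5* (0.88) and *Mpped1* (0.87). *Pthlh*, which encodes parathyroid hormone-related protein, stood at 39.3 CPM in stellate, 39.7 CPM in lumbar, 13.4 CPM in coeliac, 3.28 CPM in sphenopalatine and 0.572 and 0.298 CPM in pelvic neurons. Within the 10 stellate clusters alone the 5 correlations with *Gal* lay between 0.60 (*St6galnac5*) and 0.84 (*Pthlh*). Within the 10 sphenopalatine clusters they were -0.29 for *Omp*, 0.004 for *Sctr*, 0.33 for *Mpped1*, 0.41 for *St6galnac5* and 0.59 for *Pthlh*. For *Galr1* the nearest genes were the homeobox genes *Dlx5* and *Dlx6* (both 0.98), then *Gm43066* (0.96), *Hmx3* (0.96) and *9130024F11Rik* (0.96). All 5 were highest in the sphenopalatine library, as for example *Dlx5* at 13.5 CPM against at most 0.0126 CPM elsewhere. Within the 10 sphenopalatine clusters the correlation with *Galr1* was 0.71 for *Dlx5* and 0.47 for *Dlx6*. It was -0.11 for *Hmx3*, -0.19 for *Gm43066* and -0.44 for *9130024F11Rik*. The groups share libraries and depth, so these correlations are descriptions.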

How the data were processed

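Single cells of 6 ganglion libraries were used. Reads had been aligned to mm10 and collapsed to UMIs with Cell Ranger 6.0.1 (submitters' processing notes), and the authors deposited whole counts for each gene, not normalized. Droplets were retained between 1500 and 11000 detected genes when mitochondrial RNA was below 15%. Neurons had a mean of *Stmn2*, *Stmn3*, *Gap43* and *Tubb3* above 3 on sctransform 0.4.2 values (Seurat 5.3.0, R 4.3.3) and a glial marker mean below 1.15, the valley of its histogram. Clustering used 3000 variable genes without the 4 members, as log counts per 10000, 50 components and Louvain at resolution 0.3, with a mutual nearest neighbours correction written for the pelvic libraries. Leading genes were ranked with a pseudocount of 5 CPM. Clusters were named from fixed markers, unless genes of another cell type led them. No doublets were removed beyond this. Scrublet (scanpy 1.11.5) marked between 5 and 261 droplets per library, and an alternative left out the 5% of neurons with the highest scores.

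UMIs summed per class and library were tested with edgeR 4.0.16 (TMM, filterByExpr, library as a block), adjusted by Benjamini-Hochberg over all genes at 0.05. The paper's comparison of dichotomized patterns was not repeated. Named genes are the members, fixed pathway lists, and the 5 most correlated genes per member. Members and lists were chosen with earlier results of these data known. Gene positions are from GENCODE M21. The gene that drives Cre in the strain is not reported here.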

Additional observations from a re-analysis of the deposited data

Results flagged for a closer look

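The class difference (cholinergic against noradrenergic neurons) in the pelvic library differed from that in the sympathetic libraries, by the edgeR test of the difference itself, for 9 genes, *Gal* and 8 genes of the lists. For *Gal*, with only 6 UMIs in the noradrenergic neurons of pelvic_1, the pelvic minus the sympathetic log2 difference was 3.89. It was also above 0 for *Adcyap1* (4.09), which encodes the peptide PACAP, *Penk* (2.98), *Chgb* (2.34) and *Jun* (1.54). It was below 0 for *Pcsk2* (-2.54), *Scg2* (-2.37), *Pcsk1* (-1.33) and *Npy* (-1.20). All 9 rest on 1 pelvic library against 2 sympathetic ones, and 4.67% of all genes tested were called for this difference. Without the library block 0 of the 9 were called (edgeR), and DESeq2 called 6 of them but not *Pcsk1*, *Npy* or *Penk*. On neurons thinned to 4000 UMIs edgeR called 5 of them, *Gal*, *Chgb*, *Npy*, *Pcsk2* and *Scg2*, but not *Adcyap1*, *Jun*, *Pcsk1* or *Penk*. The value of *Npy* turned to 1.44 when cholinergic neurons had to have all 3 genes.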

How the results depend on the processing

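The order of the ganglia for *Gal* held with the per-neuron mean CPM (491 CPM stellate, 150.1 CPM coeliac, 489 CPM lumbar, 21.6 CPM sphenopalatine, 6.31 CPM pelvic), except that the stellate then stood just above the lumbar library. Subtracting the glial CPM gave 437 CPM in the stellate, 513 CPM in the lumbar, 17.4 CPM in the sphenopalatine library and a mean of 6.13 CPM over the pelvic libraries, and 55.3 CPM of *Galr1* in the sphenopalatine. Subtracting glial UMIs per droplet, added after seeing the data, gave 501 CPM of *Gal* in the stellate, and without the highest doublet scores the pelvic level was 7.03 CPM. The share of neurons with *Gal* depended on depth. In the order stellate, coeliac, lumbar, sphenopalatine and pelvic, it was 92.2, 68.4, 91.7, 31.8 and 18.9% with no thinning, 80.5, 46.4, 76.9, 11.7 and 4.47% at 8000 UMIs, and 43.7, 14.2, 49.9, 1.06 and 0.112% when 2 UMIs were required at 4000. For *Galr1* in the sphenopalatine these shares were 74.4, 36.8 and 3.17%. At a clustering resolution of 0.6 the highest *Gal* level of a sphenopalatine cluster was 69.0 CPM and the highest *Galr1* level was 130 CPM. Each maximum was taken by itself, so they need not be in the same cluster. Without either pelvic replicate the highest pelvic cluster had between 11.5 and 18.8 CPM of *Gal*.

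Of 2599, 1314 and 732 genes called in the sympathetic libraries, the pelvic library and for the difference, the fit without the library block called 9, 0 and 0 (edgeR, with 1202, 976 and 629 at an unadjusted p under 0.05), DESeq2 1069, 586 and 383, and the fit on thinned neurons 966, 361 and 246. With no filter on low counts the pelvic and difference counts were 2001 and 1308, without the highest doublet scores the difference count was 1170, and with noradrenergic neurons allowed 1 cholinergic gene, added after seeing the data, they were 2742 and 1383. Without the block *Gal* stood at -2.41 in the sympathetic libraries and at 3.88 for the difference and was no longer called. The pelvic value of *Gal* passed the threshold with no filter (1.49), without the highest doublet scores (1.48), with a minimum of 5 neurons (1.71) and with 1 cholinergic gene allowed (2.25), the last 2 of them added after seeing the data, and missed it in the other 4 alternatives. The sign turned for *Galr2* (-2.99) and *Kcnj9* (-1.88) in the pelvic library with 1 cholinergic gene allowed, and for *Ecel1* (1.51) and *Npy* (1.44) for the difference with all 3 cholinergic genes required. The turned *Galr2* value, which includes pelvic_2, was called (edgeR, adjusted p = 0.0432), as were 2742 of 15144 genes in that fit. With a minimum of 5 neurons *Galr2* stood at -2.08 ± 2.06 (SE) in the pelvic libraries and was not called. The cause of these changes was not tested. Without the stellate or the lumbar library the fit has no residual degree of freedom and was not run, and without pelvic_1 the sympathetic value of *Gal* was -2.40. No paired analysis between ganglia was possible, because the counts do not show which animal a cell came from and every ganglion but the pelvic had 1 library. The class test itself sets both classes of a library against each other through the library block. *Galr2* and *Galr3* counts limit what could be seen for these receptors.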
